A study of Mus musculus with 6 samples.

Results

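The genes described here encode the MHC class I heavy chains H2-K1, H2-D1, H2-Q4, H2-Q5, H2-Q7 and H2-T10, the light chain B2m, the peptide transporter subunits Tap1 and Tap2, and Nlrc5, the transactivator of the pathway. They are 10 of 48440 genes whose messages were sequenced in mouse adenomas of the small intestine, and they were picked by gene name after their levels in these libraries had been seen. All 10 passed the filter on low values that 14240 genes passed, a mean of at least 1 FPKM (fragments per kilobase of transcript, a level scaled for gene length and library size) over the 6 libraries. Because this same comparison of genotypes chose the genes, their differences are given as a description, with no test.

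RNA came from adenomas of ApcMin, PCdel mice (3 libraries, QC3, QC8 and QC10) and of ApcMin, WT mice (3 libraries, QC4, QC5 and QC6). Neither the sample titles nor the study's methods say whether each library came from a separate mouse. All 6 libraries came from carriers of the ApcMin allele, which gives rise to intestinal adenomas, on a C57BL/6 background. The labels give an age above 42 days. By the study's methods, PCdel mice carried Defa4-Cre and 1 copy of the Rosa26-iDTA allele, so that Cre made in Paneth cells turns on the diphtheria toxin A chain and kills that lineage, while littermates called WT carried the Rosa26-iDTA allele without Cre. The Defa4-Cre allele was built in 129/svJ embryonic stem cells, and both genotypes were housed together.

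MHC class I molecules display peptides from proteins made inside a cell to CD8 T cells. The proteasome cuts proteins into peptides, the TAP transporter pumps them into the endoplasmic reticulum, and chaperones help load them onto a heavy chain paired with beta-2 microglobulin. The classical heavy chains H2-K1 and H2-D1 are made by nearly all nucleated cells. The nonclassical Q and T genes are thought to be less variable between individuals, and several are read by innate-like lymphocytes or natural killer cells, which are plentiful in the intestinal epithelium. Interferon gamma raises most of these genes, in large part through NLRC5 and IRF1.

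Of the 10 genes, the nonclassical H2-T10, H2-Q7, H2-Q5 and H2-Q4 stood furthest apart between the genotypes, which was known when they were picked. H2-T10 was 2.91-fold higher by mean FPKM in ApcMin, PCdel adenomas, H2-Q7 was 1.83-fold higher, H2-Q5 was 1.71-fold higher and H2-Q4 was 1.46-fold higher, and for all 4 every PCdel library lay above every WT library. The classical H2-D1 was 1.24-fold higher, H2-K1 was 1.17-fold higher and B2m was 1.19-fold higher, and of these H2-D1 alone had groups that did not overlap. Tap1 was 1.42-fold higher, Tap2 was 1.19-fold higher and Nlrc5 was 1.43-fold higher. The mean of all 10 genes was higher in the PCdel group. With all 6 libraries, the groups overlapped for more abundant nonclassical genes outside this set, with mean FPKM of 287 in WT and 231.1 in PCdel adenomas for H2-Q2 and of 119.9 and 130.2 for H2-T23.

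Sequence from before the start that RefSeq annotates shows what 4 of the heavy chain genes have in common. Of the 10 genes, 6 had a window in RefSeq's promoter table (build GRCm38.p6, 250 bases before to 50 bases after the start), namely H2-K1, H2-D1, H2-Q4, H2-Q7, B2m and Tap1. The stretches below run 5′ to 3′ on the gene's strand. They are shown because class I promoters are known for a compact module read by the NLRC5 enhanceosome, NF-kB and interferon factors. Capitals mark 4 short motifs searched on both strands, the NF-kB form GGGANNNCCC, the interferon-stimulated response element core GAAANNGAAA, the X2 core TGACG and the Y box CCAAT, which reads ATTGG on the other strand. Neighbouring NF-kB matches overlap each other and print as 1 run of capitals.
H2-K1: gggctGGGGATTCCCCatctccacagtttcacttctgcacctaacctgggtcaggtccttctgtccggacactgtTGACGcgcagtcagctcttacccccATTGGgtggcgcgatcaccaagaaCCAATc
H2-D1: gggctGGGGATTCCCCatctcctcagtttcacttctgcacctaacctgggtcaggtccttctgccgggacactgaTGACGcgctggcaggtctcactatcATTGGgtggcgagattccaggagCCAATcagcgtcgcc
H2-Q4: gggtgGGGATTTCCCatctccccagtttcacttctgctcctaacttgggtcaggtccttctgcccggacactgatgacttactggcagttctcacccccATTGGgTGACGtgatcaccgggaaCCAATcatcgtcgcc
H2-Q7: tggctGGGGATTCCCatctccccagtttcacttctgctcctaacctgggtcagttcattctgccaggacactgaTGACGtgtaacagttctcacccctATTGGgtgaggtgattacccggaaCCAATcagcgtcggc
B2m: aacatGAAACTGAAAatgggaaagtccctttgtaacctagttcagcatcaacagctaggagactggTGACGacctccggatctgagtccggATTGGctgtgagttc
Tap1: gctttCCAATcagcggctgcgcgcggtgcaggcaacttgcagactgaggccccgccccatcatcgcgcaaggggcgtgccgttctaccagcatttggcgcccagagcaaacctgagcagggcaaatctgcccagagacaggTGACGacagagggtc

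The H2-K1 stretch is chr17:34000334-34000463 on the minus strand. The others are on the plus strand, at chr17:35262918-35263055 for H2-D1, chr17:35379439-35379576 for H2-Q4, chr17:35439017-35439153 for H2-Q7, chr2:122147543-122147648 for B2m and chr17:34187329-34187484 for Tap1. The files start H2-D1 further upstream, at 35262730, so its stretch lies within the gene as the files draw it. All 4 heavy chain windows held an NF-kB match, against 5.55% of the 32851 windows in the table, and all 4 held the Y box in both orientations, against 37.41% of windows with at least 1 match. TGACG was in all 6 windows, against 20.81% of all windows. It began 25 bases before ATTGG in H2-K1, H2-D1 and B2m and 24 bases before it in H2-Q7, whereas the TGACG of H2-Q4 upstream of the start began 6 bases after the start of ATTGG. B2m was the only one of the 6 windows with a match to the interferon-stimulated response element core as searched, GAAANNGAAA, which 3.44% of all windows held. All 4 heavy chain stretches print agtttcacttct after the NF-kB match, and looser forms of the element were not searched. A window without a match to the strict form may therefore still hold such an element. These matches are letters found in a window, and binding was not measured. A run of 21 bases, ACAGGGTTCAGGCAAAGTCTT, upstream of the printed stretches, was the longest that the 4 heavy chain windows shared, and 6 of the 32851 windows (0.018%) held it. By RefSeq, the start of Tap1 lay 226 bases from the start of Psmb9, an immunoproteasome subunit gene on the opposite strand, so that their windows overlapped by 275 bases. The deposited coordinates draw Psmb9 up to 34187764, past the start of Tap1 at 34187553. By those coordinates the genes overlap, and the printed Tap1 stretch lies within Psmb9.

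Of the 10 genes, 8 lie on chromosome 17, in the MHC. In the coordinates of the files, which match GRCm38, H2-K1 (ENSMUSG00000061232.15) spans chr17:33996017-34000333 on the minus strand, Tap1 spans chr17:34187553-34197225 and Tap2 spans chr17:34203527-34216321, both on the plus strand. H2-D1 spans chr17:35262730-35267499, H2-Q4 spans chr17:35379617-35385290, H2-Q5 spans chr17:35394126-35397800 and H2-Q7 spans chr17:35439155-35443773, all on the plus strand. H2-T10 (ENSMUSG00000079491.9) spans chr17:36115876-36121465 on the minus strand. B2m is at chr2:122147686-122153083 and Nlrc5 at chr8:94472763-94527272, both on the plus strand.

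The libraries were close in read coverage and 1 of them stood apart. The median read coverage of genes with at least 1 FPKM was between 30.3 and 33.1. FPKM values, already scaled for library size, summed to between 549225 and 604974 per library, which does not measure depth. The files used here hold no read counts, so no counting intervals were derived. The epithelial marker list (Epcam, Cdh1, Krt8, Krt18, Krt19, Krt20, Vil1 and Cdx2) was detected in full, summing to between 5404 and 7216 FPKM in WT and between 5972 and 7557 FPKM in PCdel libraries. Epcam, an epithelial surface protein, averaged 881 FPKM in WT and 878.8 FPKM in PCdel libraries. Lyz1, the lysozyme of Paneth cells, measured 1672 to 2281 FPKM in WT and 950.3 to 1148 FPKM in PCdel libraries. The Paneth cell genes Lyz1, Defa21 and Defa22, which check the labels, had log2 fold changes of −0.95, −2.98 and −2.77, with no overlap between groups and limma adjusted p of 0.979, 0.309 and 0.309. Library QC6 (WT) received the lowest limma quality weight, 0.237, against 0.634 to 3.09 for the others. B2m, H2-K1 and the heavy chain gene H2-Q2 were all at their highest in QC6, while Nlrc5 was at its lowest there.

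Across all 14240 genes, limma called 2 genes at an adjusted p under 0.05 (0.0140% of genes tested), and none of them was among the genes listed here. At an unadjusted p under 0.05, 384 genes (2.70%) were higher and 97 genes (0.681%) were lower in PCdel adenomas. After median centring of the libraries these counts were 277 and 174, and after quantile normalization they were 261 and 182. The median log2 fold change over all genes was 0.04, and that of the 10 class I genes was 0.38. In 854 genes (6.00%) every PCdel library lay above every WT library, and in 219 genes (1.54%) every one lay below. Among the 10 class I genes, 6 were of the first kind and none of the second, counts that the choice of genes fixed in large part.

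**Figure D1:**
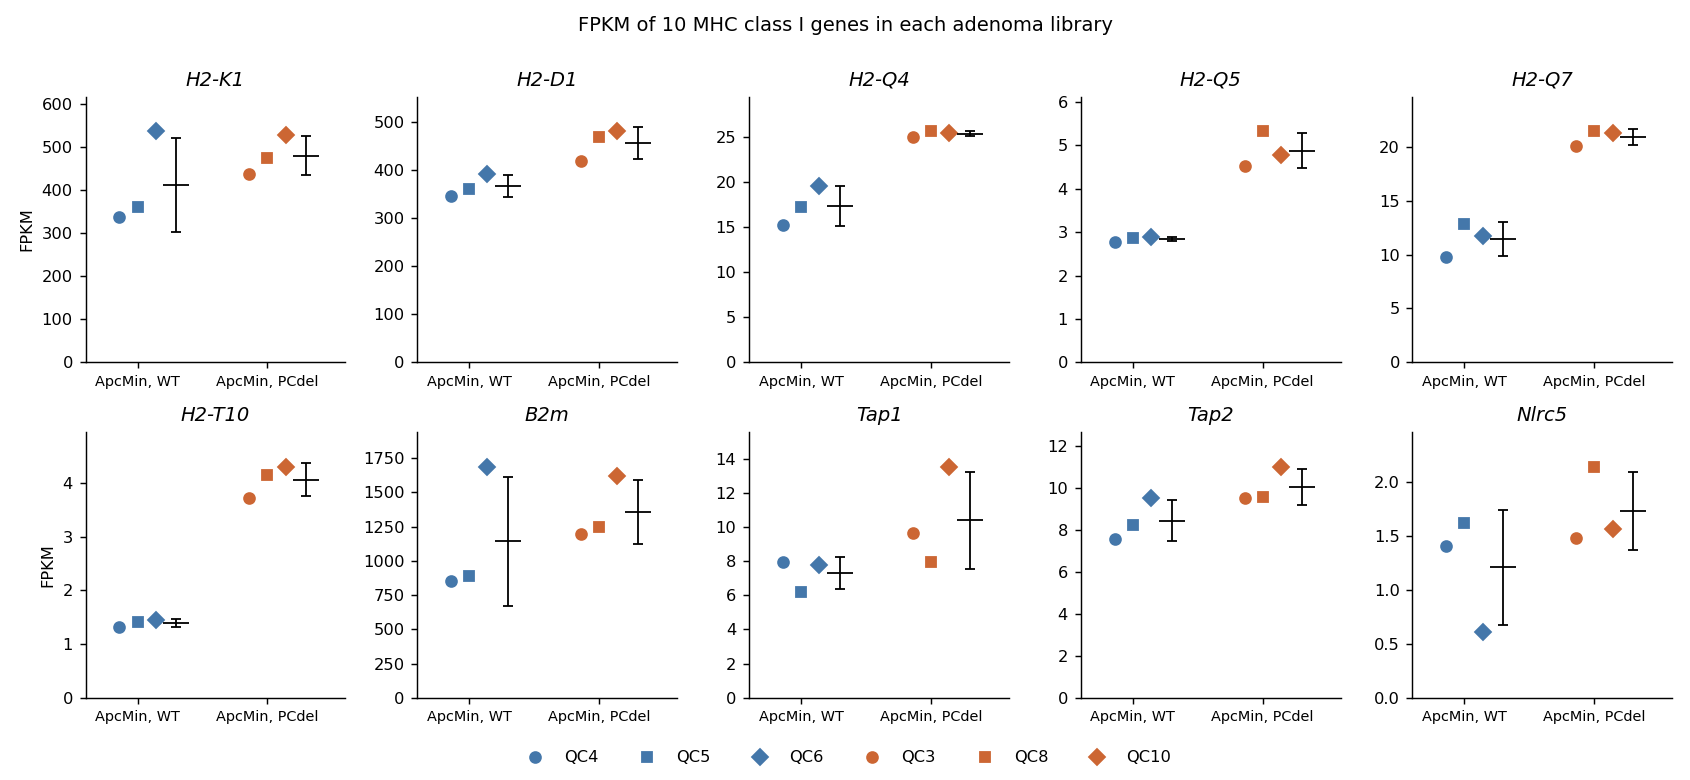
FPKM of the 10 class I genes in each library, on linear axes from 0, with blue symbols for ApcMin, WT and orange symbols for ApcMin, PCdel libraries. Horizontal bars and whiskers give the mean and SD of 3 libraries. The orange symbols lie above all blue symbols for H2-D1, H2-Q4, H2-Q5, H2-Q7, H2-T10 and, narrowly, Tap1, whereas for H2-K1 and B2m the WT library QC6 was the highest of all 6.

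By FPKM, which is per length, the level of B2m was the highest of the 10 genes in every library. H2-K1 and H2-D1 came next and could not be ordered in WT adenomas, where H2-K1 was higher in 1 of 3 libraries, while it was the higher in 3 of 3 PCdel libraries. H2-Q4 came after them and then H2-Q7 in both groups, each above the next gene in all 6 libraries. Tap1 and Tap2 changed places between libraries, with Tap2 the higher in 2 of 3 WT and 1 of 3 PCdel libraries. H2-Q5 followed. H2-T10 and Nlrc5 were the lowest, with H2-T10 the higher in 1 of 3 WT and 3 of 3 PCdel libraries. A difference in level in a bulk sample cannot separate more cells of a type from more RNA per cell.

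H2-K1, the K heavy chain that presents peptides to CD8 T cells, measured 336.8 FPKM in QC4, 360.5 in QC5 and 536.3 in QC6, all WT. In the PCdel group it measured 438 FPKM in QC3, 473.4 in QC8 and 527.6 in QC10, and all values that follow keep this order of libraries. QC6 was the highest of the 6, so the groups overlapped, and the remaining WT libraries lay below all PCdel libraries. The means were 411.2 ± 109 FPKM (SD, n = 3) in WT and 479.7 ± 45.1 FPKM (SD, n = 3) in PCdel adenomas, a log2 fold change of 0.25 ± 0.20 (SE, limma on log2(FPKM + 1)). Without QC6 the log2 fold change was 0.46, and without QC4 it was 0.12.

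H2-D1, the D heavy chain with the same role, measured 345.7, 361 and 391.1 FPKM in WT libraries and 417.4, 467.6 and 479.8 FPKM in PCdel libraries. Every PCdel library was above every WT library, and the gap between the groups, from 391.1 to 417.4 FPKM, was smaller than the range within either group. The means were 365.9 ± 23.1 and 455 ± 33.1 FPKM (SD, n = 3 each), a log2 fold change of 0.31 ± 0.12 (SE). In WT libraries H2-D1 was the steadier of the classical genes, with a coefficient of variation of 6.31% against 26.5% for H2-K1, which was far higher in QC6. In PCdel libraries these were closer, at 7.27% and 9.41%.

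H2-Q4, a nonclassical heavy chain known as Qb-1, measured 15.23, 17.28 and 19.59 FPKM in WT libraries and 25.07, 25.67 and 25.45 FPKM in PCdel libraries. The PCdel libraries had a coefficient of variation of 1.21% and lay above all WT libraries. The means were 17.37 ± 2.18 and 25.4 ± 0.307 FPKM (SD, n = 3 each), a log2 fold change of 0.53 ± 0.11 (SE).

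H2-Q5 measured 2.783, 2.855 and 2.892 FPKM in WT libraries and 4.528, 5.321 and 4.771 FPKM in PCdel libraries. The WT libraries differed little, and the lowest PCdel library was well above the highest of them. The log2 fold change was 0.61 ± 0.10 (SE).

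H2-Q7, which encodes a Qa-2 molecule, measured 9.761, 12.84 and 11.71 FPKM in WT libraries and 20.07, 21.42 and 21.22 FPKM in PCdel libraries. The groups did not overlap, and the gap between them was larger than the range within each. The means were 11.44 ± 1.56 and 20.9 ± 0.727 FPKM (SD, n = 3 each), a log2 fold change of 0.82 ± 0.12 (SE), which ranked 79 from the top among the 14240 genes tested.

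H2-T10, a T region gene whose protein needs no peptide to fold and is a ligand of some gamma delta T cells, measured 1.316, 1.413 and 1.456 FPKM in WT libraries. It measured 3.712, 4.158 and 4.304 FPKM in PCdel libraries. Both groups were tight and far apart. The means were 1.395 ± 0.0718 and 4.058 ± 0.308 FPKM (SD, n = 3 each), a log2 fold change of 1.08 ± 0.10 (SE), rank 38 of 14240. The depth behind these values was low, with a mean read coverage of the gene of 5.21 to 5.45 in WT and 10.8 to 14.1 in PCdel libraries, a 2.32-fold ratio of mean coverage against 2.91-fold by FPKM.

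These heavy chain genes are near copies, and reads can be split between them. Of the 31-base words in the annotated transcripts of H2-T10, 64.2% also occur in another gene and 47.64% in H2-T22, its closest relative. The share in any other gene was 57.85% for H2-Q5 (43.24% in H2-Q7), 53.05% for H2-Q4 (19.47% in H2-Q6), 39.25% for H2-Q7 (22.38% in H2-Q10), 26.9% for H2-D1 and 22.76% for H2-K1. It was 14.34% for Tap2, 4.09% for Tap1 and 0.58% for Nlrc5, and 0% for B2m. The fold changes of the Q and T genes are uncertain for this reason, by an amount that these shares do not measure.

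Sums over near copies were added after the data were seen. H2-Q6 measured 5.143, 14.07 and 15.29 FPKM in WT libraries and 20.22, 24.01 and 20.85 FPKM in PCdel libraries. H2-Q6 and H2-Q7 summed to 14.9, 26.91 and 27 FPKM in WT and 40.29, 45.43 and 42.07 FPKM in PCdel libraries, again without overlap, a difference of 0.91 in log2(FPKM + 1) against 0.82 for H2-Q7 alone. The sum of H2-Q5, H2-Q6, H2-Q7 and H2-Q10 gave a difference of 0.81, and that of H2-Q4 and H2-Q6 gave 0.72. H2-T22 measured 20.86, 21.58 and 23.83 FPKM in WT libraries and 26.03, 23.42 and 31.01 FPKM in PCdel libraries, many times the level of H2-T10. Summed with it, H2-T10 and H2-T22 gave 22.18, 22.99 and 25.28 FPKM in WT and 29.74, 27.58 and 35.31 FPKM in PCdel libraries, without overlap and with a difference of 0.38. Since H2-T22 makes up most of this sum, the value lies close to the 0.26 of H2-T22 alone, and how many reads the pair exchanged was not tested.

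B2m, the light chain that every class I heavy chain needs at the cell surface, measured 850.3, 886.7 and 1687 FPKM in WT libraries and 1197, 1245 and 1622 FPKM in PCdel libraries. The highest value was in the WT library QC6 and the next in the PCdel library QC10, so the groups overlapped. The means were 1141 ± 473 and 1355 ± 233 FPKM (SD, n = 3 each), a log2 fold change of 0.31 ± 0.29 (SE), smaller than the spread between WT libraries. Without QC6 it was 0.63, and it was 0.13 without QC4, 0.16 without QC5 and 0.17 without QC10. B2m has no shared 31-base words, so near copies do not touch this value.

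Tap1, one of the transporter subunits, measured 7.941, 6.201 and 7.768 FPKM in WT libraries and 9.669, 7.978 and 13.53 FPKM in PCdel libraries. The groups did not overlap, but 7.978 FPKM in QC8 was barely above 7.941 FPKM in QC4. The log2 fold change was 0.43 ± 0.19 (SE), and 0.24 without QC10. Tap2, its partner, measured 7.583, 8.216 and 9.535 FPKM in WT libraries and 9.533, 9.586 and 11.01 FPKM in PCdel libraries. QC6 and QC3 were all but equal, which is where the groups met. The log2 fold change of Tap2 was 0.23 ± 0.12 (SE), the smallest of the 10 genes.

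Nlrc5, the transactivator that is brought to class I promoters by the RFX, CREB/ATF and NF-Y factors, measured 1.403, 1.616 and 0.6081 FPKM in WT libraries and 1.485, 2.142 and 1.56 FPKM in PCdel libraries. The groups overlapped, and QC6 was far below the rest. The log2 fold change was 0.33 ± 0.21 (SE), and 0.11 without QC6. The deposited coverage of the same gene ran differently. It was 2.99, 4.02 and 2.55 in WT libraries and 5.69, 7.41 and 6.74 in PCdel libraries, without overlap and with a 2.07-fold ratio of means. For the 9 other genes the ratio of mean coverage was between 1.16 and 2.32 and no gene's groups changed from overlapping to apart or back. Which of the measures follows the transcript more closely was not tested.

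**Figure D2:**
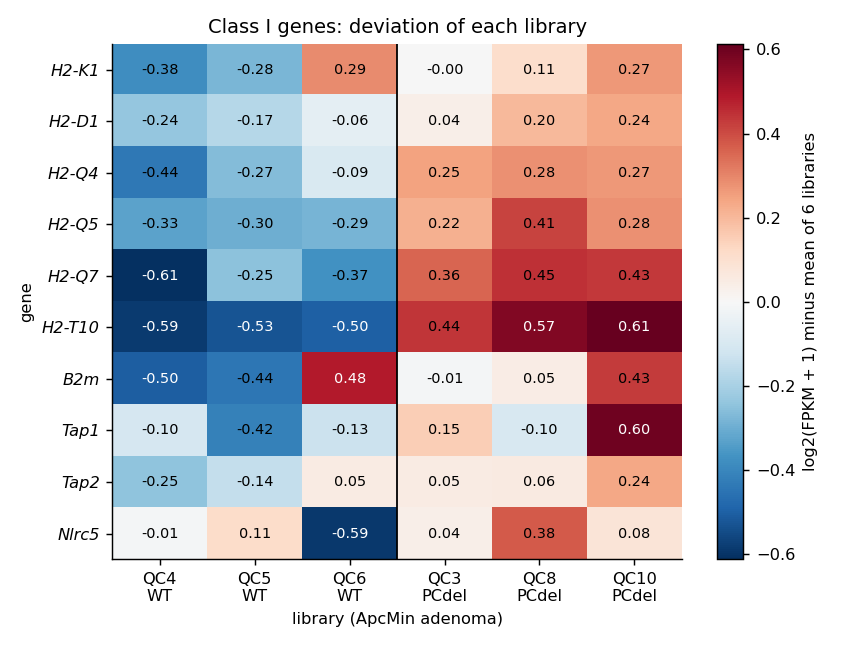
Deviation of log2(FPKM + 1) in each library from the gene's mean over the 6 libraries, for the 10 class I genes, with ApcMin, WT libraries left of the line and ApcMin, PCdel libraries right of it. H2-Q4, H2-Q5, H2-Q7 and H2-T10 were below their mean in every WT library and above it in every PCdel library, while QC6 was above the mean for H2-K1 and B2m and far below it for Nlrc5.

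Without QC6, 9 of the 10 genes had every PCdel library above the remaining WT libraries, the exception being Nlrc5. Of all 14264 genes tested without QC6, 11.3% did so. The median log2 fold change of the 10 genes was then 0.55, against 0.00 over all genes. H2-Q4, H2-Q5, H2-Q7 and H2-T10 moved little, with a median of 0.73 without QC6 and 0.72 with it, while the classical pair went from 0.28 to 0.41. The difference of these 4 Q and T genes was as large without this library.

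Within a library, the 4 nonclassical members were higher relative to the classical pair in PCdel adenomas. The summed FPKM of H2-Q4, H2-Q5, H2-Q7 and H2-T10 equalled 4.26%, 4.77% and 3.84% of the summed FPKM of H2-K1 and H2-D1 in QC4, QC5 and QC6. It equalled 6.24%, 6.01% and 5.53% in QC3, QC8 and QC10. The groups did not overlap, and the means were 4.29 ± 0.462% and 5.93 ± 0.361% (SD, n = 3 each), a difference of 1.64 percentage points. The 4 genes were picked with their differences known, so that choice fixed this separation in large part. In absolute terms the nonclassical sum went from 33.04 ± 3.48 to 55.23 ± 1.66 FPKM and the classical sum from 777.1 ± 132 to 934.5 ± 76 FPKM (SD, n = 3 each), so that the larger part of the difference in message was classical. This does not extend to all nonclassical genes. All listed heavy chains other than H2-K1 and H2-D1 together equalled 57.7%, 57.2% and 95.1% of the classical sum in WT libraries and 60.1%, 50.2% and 62% in PCdel libraries, and the groups overlapped.

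Other ratios between the genes did not separate the groups. The ratio of B2m to the classical heavy chains was 1.25, 1.23 and 1.82 in WT libraries and 1.4, 1.32 and 1.61 in PCdel libraries. H2-K1 to H2-D1 was 0.974, 0.999 and 1.37 in WT and 1.05, 1.01 and 1.1 in PCdel libraries. Both ratios were highest in QC6. Tap1 to Tap2 lay between 0.755 and 1.05 in WT and between 0.832 and 1.23 in PCdel libraries.

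**Figure D3:**
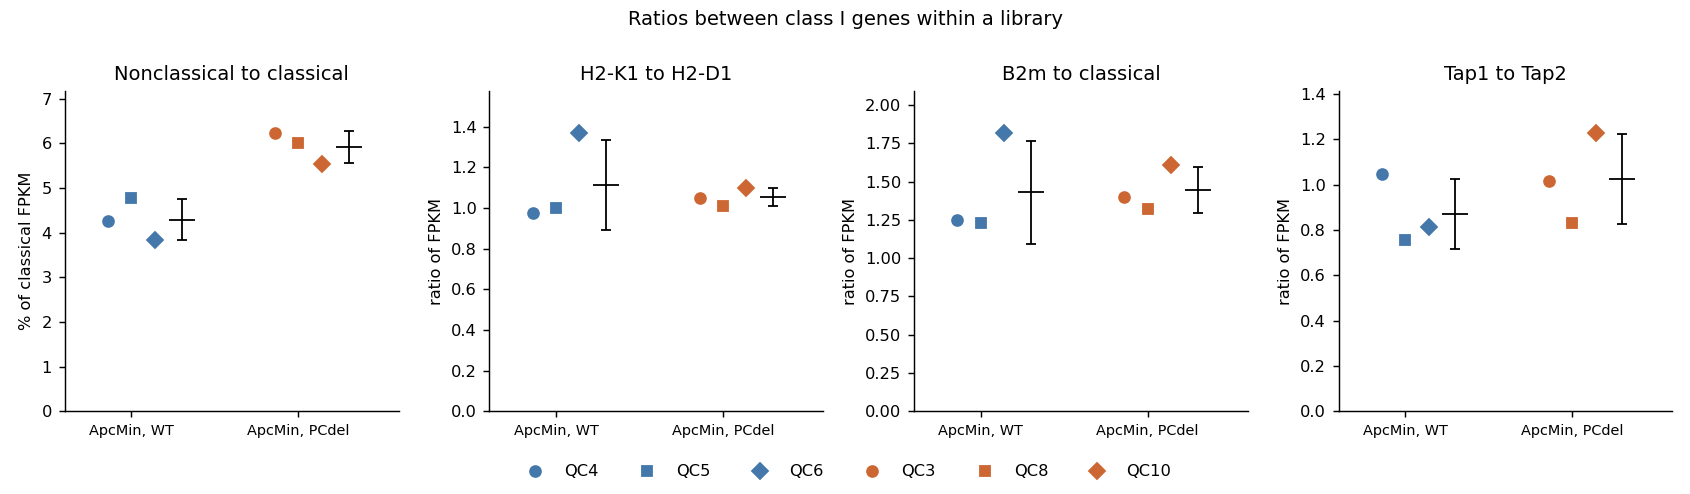
Ratios of FPKM within each library, on axes from 0: nonclassical (H2-Q4, H2-Q5, H2-Q7 and H2-T10) as a percent of classical (H2-K1 and H2-D1), H2-K1 to H2-D1, B2m to classical, and Tap1 to Tap2. Bars and whiskers give the mean and SD of 3 libraries. The groups are apart in the first panel alone, at 3.84% to 4.77% in WT and 5.53% to 6.24% in PCdel adenomas. The choice of genes fixed that separation in large part.

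The rest of the pathway was read from 11 lists of genes around class I, which hold 145 genes, 97 of them tested. None passed limma at an adjusted p under 0.05, the lowest being 0.979. At an unadjusted p under 0.05, 19 of the 97 (19.6%) were higher in PCdel adenomas and 0 were lower, against 2.70% and 0.681% of all genes. Of the 19, 11 were interferon gamma response genes and 3 were other class I heavy chains. The lists were chosen with earlier results of these data known, so this count is not independent evidence.

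Among other class I heavy chains, 11 of 30 listed genes were tested, 3 were higher at an unadjusted p under 0.05 (H2-Q6, H2-Q10 and H2-M3), 0 were lower, and the median log2 fold change was 0.12. H2-M3, which presents formylated peptides, measured 2.551, 3.285 and 3.411 FPKM in WT and 4.683, 4.143 and 3.832 FPKM in PCdel libraries, without overlap. H2-T23, the Qa-1 heavy chain seen by CD94/NKG2 receptors, had a log2 fold change of 0.12 ± 0.21 (SE) and overlapping groups. The nonclassical genes H2-Q1, H2-Q2 and H2-T3 were highest in QC6 and had negative log2 fold changes of −0.13, −0.11 and −0.65. H2-Q2 measured 520 FPKM in QC6 and between 164 and 270.8 FPKM in the other libraries. Without QC6 the log2 fold changes of H2-Q1 and H2-Q2 turned positive, at 0.24 and 0.42, and that of H2-T3 was −0.25. The list median was then 0.29, and in 9 of the 11 tested genes every PCdel library lay above the remaining WT libraries, against 11.3% of all genes.

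Of class I-like genes outside the MHC, 5 were tested, 1 (Procr, an endothelial protein C receptor with a class I fold) was higher at an unadjusted p under 0.05 and 0 were lower, with a median of 0.21. Fcgrt, the heavy chain of the neonatal Fc receptor and a partner of B2m, had a log2 fold change of −0.14 ± 0.22 (SE). Mr1, which presents vitamin B metabolites, had 0.27 ± 0.19 (SE). Without QC6 the list median fell to 0.11.

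Peptide loading and trimming genes numbered 9, all tested, and 0 were past an unadjusted p of 0.05 in either direction, with a median of 0.12. Without QC6 the list median fell to 0.015. Tapbp (tapasin, which bridges TAP and the heavy chain) had a log2 fold change of 0.16 ± 0.11 (SE), and Erap1, the peptide-trimming aminopeptidase, had 0.12 ± 0.11 (SE). The log2 fold change of Tap1, 0.43, was larger than for any of these genes, but Tap1 was picked with its difference known.

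Of 5 immunoproteasome and PA28 genes, 1 was higher at an unadjusted p under 0.05 and 0 were lower, with a median of 0.15. Psmb8, a catalytic subunit, measured 24.42, 31.11 and 38.24 FPKM in WT and 53.46, 36.58 and 66.47 FPKM in PCdel libraries, a log2 fold change of 0.70 ± 0.25 (SE) with overlapping groups. Psmb9, whose RefSeq window overlaps that of Tap1, measured 9.966, 12.46 and 16.76 FPKM in WT and 18.15, 15.81 and 31.98 FPKM in PCdel libraries, 0.67 ± 0.29 (SE). Like Tap1, it was highest in QC10 and lowest of the PCdel libraries in QC8, an order that Psmb8 also had. Among WT libraries Psmb9 was lowest in QC4, where Tap1 was highest. Psmb10, Psme1 and Psme2 had log2 fold changes of 0.14, −0.12 and 0.15. The 5 constitutive counterparts had a median of 0.02, with 0 past an unadjusted p of 0.05. Without QC6 the median was −0.05 for these counterparts and 0.23 for the immunoproteasome and PA28 genes.

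Among 15 factors known to act at class I promoters, 2 were higher at an unadjusted p under 0.05, Ciita among them, 0 were lower, and the median was 0.12. Ciita, the class II counterpart of Nlrc5, measured 2.274, 2.613 and 3.712 FPKM in WT and 3.735, 3.963 and 5.638 FPKM in PCdel libraries, without overlap. Irf1 had a log2 fold change of 0.33 ± 0.30 (SE), and Rfx5 had −0.11 ± 0.20 (SE), both with overlapping groups. Without QC6 the list median fell to 0.004.

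Of the 17 interferon gamma response genes tested, 11 were higher at an unadjusted p under 0.05 and 0 were lower, against 2.70% and 0.681% of all genes, and 0 of them passed after adjustment (limma). Groups did not overlap in 11 of the 17, all higher, against 6.00% of all genes. The median log2 fold change was 0.45, and 0.55 without QC6. Iigp1, an interferon-induced GTPase, measured 2.399, 3.114 and 3.159 FPKM in WT and 8.702, 4.277 and 4.808 FPKM in PCdel libraries. Cxcl9, a chemokine for T cells, measured 1.19, 1.572 and 2.253 FPKM in WT and 4.385, 3.091 and 2.67 FPKM in PCdel libraries. This list was chosen with earlier results of these data known, so its direction is not independent evidence.

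Of the 13 tested genes of the type I and III interferon response, 1 was higher at an unadjusted p under 0.05 (Zbp1) and 0 were lower, with a median of 0.04, where that of all genes was also 0.04. Without QC6 the list median was 0.13, against 0.00 over all genes. Zbp1, a sensor of Z-form nucleic acid, measured 23.87, 25.33 and 22.16 FPKM in WT and 34.2, 29.86 and 38.46 FPKM in PCdel libraries. Stat2, of the type I signal, had a log2 fold change of 0.14 ± 0.10 (SE). Of 6 interferons and receptors tested, 0 were past an unadjusted p of 0.05, with a median of −0.05, and −0.03 without QC6. Ifng itself did not pass the filter, and its highest value in any library was 0.13 FPKM. The difference between the interferon lists was not tested.

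All 7 tested MHC class II genes had positive log2 fold changes, from 0.36 to 0.54 with a median of 0.39, but 0 were past an unadjusted p of 0.05 and all had overlapping groups. The overlap came from QC6. Without it all 7 had every PCdel library above the remaining WT libraries, against 11.3% of all genes. The median of the 7 was then 0.65, against 0.55 for the class I genes, which were picked with their differences known. The 4 tested receptors for class I had a median of 0.19, or 0.28 without QC6, and 0 past an unadjusted p of 0.05. Cd8a, the coreceptor of CD8 T cells, measured 1.581, 2.23 and 4.788 FPKM in WT and 4.32, 2.909 and 4.526 FPKM in PCdel libraries. QC6 was again the highest.

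**Figure D4:**
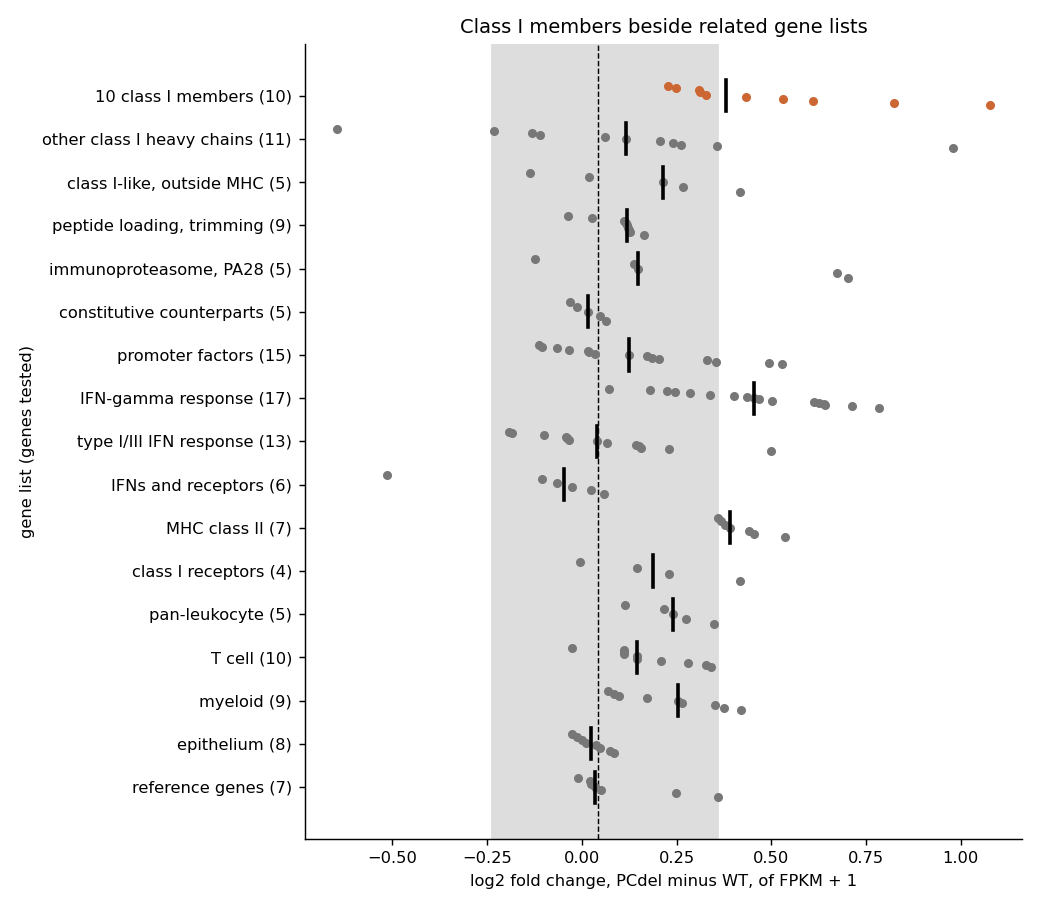
Log2 fold change (PCdel minus WT, on log2(FPKM + 1)) of every tested gene of the class I set (orange) and of 16 other lists (grey), with black bars for list medians and the number of genes tested in brackets. The dashed line is the median of all 14240 genes, 0.04, and the shaded band holds the middle 90% of them, from −0.24 to 0.36. The band shows the spread of single genes and is no scale for list medians, which were 0.38 for the class I genes, chosen on these values, 0.45 for the interferon gamma response and 0.39 for class II. No listed gene outside the class I set passed the adjusted threshold.

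Cell types that carry much class I were measured by markers. Of 5 pan-leukocyte genes, all detected, 0 were past an unadjusted p of 0.05, the median log2 fold change was 0.24, and they summed to between 67.9 and 98.4 FPKM in WT and between 89.7 and 108.2 FPKM in PCdel libraries. Ptprc (CD45, on all leukocytes) measured 4.511, 5.457 and 8.749 FPKM in WT and 8.028, 8.789 and 7.102 FPKM in PCdel libraries. The 11 T cell genes summed to between 53.5 and 184.8 FPKM in WT and between 83.7 and 140.5 FPKM in PCdel libraries, with a median of 0.14 over the 10 tested. Without QC6 the median rose to 0.47 for the T cell genes and to 0.34 for the pan-leukocyte genes, but not every marker list rose. Of the 9 myeloid genes, 2 (Adgre1 and C1qb, of macrophages) were higher at an unadjusted p under 0.05, against 2.70% of all genes, and the median was 0.25. The sums were 88.9 to 99.4 FPKM in WT and 104 to 128.6 FPKM in PCdel libraries, which did not overlap. C1qa and C1qb made up the larger part of these sums, and single genes had groups apart in 2 of 9. Of 5 stromal genes, 2 (Pdgfra and Dcn, of fibroblasts) were higher at an unadjusted p under 0.05, against the same 2.70% of all genes. Their median was 0.28, with sums of 176.3 to 260.6 FPKM in WT and 224.9 to 358.2 FPKM in PCdel libraries for the 5 genes. Medians were 0.03 for the 3 tested B cell genes, 0.25 for 4 endothelial genes, 0.30 for 4 smooth muscle genes, 0.02 for 8 epithelial genes and 0.04 for 7 reference genes, with 0 past an unadjusted p of 0.05 in each. Without QC6 the median rose to 0.22 for B cell and to 0.35 for smooth muscle genes. It fell to 0.165 for myeloid, 0.13 for stromal, 0.04 for endothelial and −0.10 for epithelial genes. None of these marker genes was at 0 in all libraries. The part of these cells in the class I values was not tested.

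The 8 other genes whose pattern over the 6 libraries was most like the mean of the 10 class I genes were Bmp5, Timm44, Ms4a6b, Slamf8, Gbp7, Stam, 6820431F20Rik and Mapkap1. Likeness was the root mean square difference between centred log2(FPKM + 1) values, from 0.0545 for Bmp5 to 0.0887 for Mapkap1, where the median over all genes tested was 0.30. Bmp5, a BMP ligand of the stroma, measured 2.765, 2.833 and 3.118 FPKM in WT and 4.248, 4.966 and 4.849 FPKM in PCdel libraries. Gbp7 is an interferon-induced guanylate-binding protein gene. Of the class I genes themselves, H2-Q4 (0.07) and H2-D1 (0.09) were nearest to their common mean, and Nlrc5 (0.31), H2-T10 (0.30) and B2m (0.29) were farthest. With a mean taken over 6 points and 2 groups, most genes of like size and direction of difference come close, so the names describe a pattern and nothing more.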

How the data were processed

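Adenoma RNA was sequenced from TruSeq libraries on a HiSeq2500. The study's methods name CLC Genomics Workbench for alignment and MatLab for normalization. The authors deposited, per library and gene, FPKM, TPM (an alternative here) and read coverage, a signal not scaled for library size. The tool that wrote these values and its annotation are not given in the sources used here. Entries of 1 gene were summed for FPKM and TPM, and the highest entry was taken for coverage. FPKM were compared as log2(FPKM + 1) in limma 3.58.1 (R 4.3.3; lmFit, eBayes with trend) over all 6 libraries for the 14240 genes averaging at least 1 FPKM, and p-values were adjusted by Benjamini-Hochberg with calls below 0.05. The added 1 understates fold changes of low genes. The fit was tested on simulated data with 200 genes changed by 2 on the log2 scale, of which 90.0% were recovered. Smaller changes, such as those of the 10 class I genes, were not simulated. Shared words of 31 bases came from GENCODE M21 transcripts (GRCm38), which hold the same gene version for 83.8% of the 48440 IDs and for 7 of the 10 class I genes. Alternatives were another pseudocount (0.1), no filter, a minimum of 5 FPKM, quantile normalization, median centring, TPM, no trend, array quality weights and each library left out. Near copies were summed as an added alternative. P-values measure the spread between libraries of 1 genotype, which is a spread between mice only if each library came from a separate mouse.

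The 10 class I genes and the gene lists were chosen with earlier results of these data known. Named genes are the 10, a fixed set of pathway genes, per list those past the threshold or otherwise the 2 largest differences without overlap, and the 8 nearest in pattern. H2-Q10 and H2-Q1, H2-Q2 and H2-T3 were named after their values were seen. The values of 1 gene that this rule names are not reported here.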

Additional observations from a re-analysis of the deposited data

How the results depend on the processing

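No paired analysis was possible because the labels carry no number that links a PCdel to a WT mouse. In 14 alternatives, the log2 fold changes of the 10 class I genes stayed positive in all 137 values, and 132 of them moved by less than 1 SD between replicates. The exceptions were H2-T10 (1.47 with a pseudocount of 0.1, 1.28 with TPM and 1.001 with quantile normalization) and H2-Q5 (0.754 with a pseudocount of 0.1 and 0.721 with TPM). B2m moved from 0.31 to 0.60 with quantile normalization and 0.51 with quality weights, and Nlrc5 from 0.33 to 0.56 with a pseudocount of 0.1 and 0.13 with quality weights. After summing near copies, H2-T10 with H2-T22 gave 0.38 and H2-Q4 with H2-Q6 gave 0.72. The median of the 10 was 0.38, and 0.515 with a pseudocount of 0.1. It ranged from 0.321 to 0.546 with a library left out, the highest being without QC6. TPM shifted the median of all genes to 0.10, and the class I median was then 0.478. The nonclassical to classical difference of 1.64 points became 1.19 with quantile normalization and ranged from 1.41 to 1.87 with a library left out. Genes called over all genes numbered 2, and 1 with no filter on low values and with median centring, and 1 to 5 with a library left out, 5 without QC4. Listed genes past the threshold numbered 0 to 1, the 1 being Defa22 without QC4. The 79.8% share of higher genes at an unadjusted p under 0.05 became 58.9% with quantile normalization, 61.4% with median centring, 63.5% with quality weights and 59.3% without QC6, and 1270 genes were below that p with quality weights against 481. Low coverage limits H2-T10 and Nlrc5 most.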
